A study of Saccharomyces cerevisiae with 136 samples.

Results

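The proteasome subunit genes of budding yeast were followed through replicative aging, together with RPN4, the gene of their transcription factor, and UBI4, the polyubiquitin gene. The 34 genes were chosen by name: 14 subunits of the 20S core (SCL1, PRE1 to PRE10 and PUP1 to PUP3), 18 subunits of the 19S particle (RPT1 to RPT6, RPN1 to RPN3 and RPN5 to RPN13), RPN4 and UBI4. They are 34 of the 5997 genes of the deposited table. Single wild type cells (WT) were dissected by hand from SD solid agar when 2, 16 or 36 h had passed since their birth, and each gave a separate Smart-seq2 library. The 2-h age group has 37 cells, the 16-h age group 43 and the 36-h age group 45. The study's supplementary table gives the generation of each cell, that is, the number of daughters counted, and the 16-h and 36-h cells were split at the mean generation of their age group into fast-dividing cells (16-h/F with 26 cells, 36-h/F with 27) and slow-dividing cells (16-h/S with 17, 36-h/S with 18). No group differs from another in genotype or medium, and the strain label reads BY4742 although the sample titles read BY4741. LYS2, which is deleted in BY4742, had reads in 5 of 125 cells (40 reads in all), STE2, the receptor gene of a cells, in 1 of 125, and MF(ALPHA)1, a pheromone gene of alpha cells, in 65 of 125.

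The proteasome is the protease that degrades proteins marked with chains of ubiquitin. Its 20S core is a barrel of stacked rings, in which the outer α rings gate the entrance and the inner β rings carry the proteolytic sites. The 19S particle caps the core: its base, with the 6 Rpt ATPases, unfolds substrates and threads them in, and its lid, with the protease subunit Rpn11, removes their ubiquitin. Rpn4 binds the promoters of most subunit genes through the proteasome-associated control element, and Rpn4 is itself degraded rapidly by the proteasome. Ubiquitin is made as fusions: RPL40A, RPL40B and RPS31 each join 1 unit to a ribosomal protein, and UBI4, known as a stress gene, strings 5 units head to tail.

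Promoters were searched for the letters of the control element. The 9 letters GGTGGCAAA were searched on both strands of the RefSeq R64 genome from 250 bases before to 50 bases after each coding start. They were found at 28 of the 34 genes, 12 of 14 core genes, 15 of 18 cap genes and UBI4. With the same window they were found at 72 of 6001 protein-coding genes of the nuclear genome (1.20%). Among genes passing the level filter given below they were found at 48 of 1864 (2.58%), and both counts include the 28. The element is known at most subunit genes, as given above, so these counts are a description. Each of the 28 genes had 1 copy, which began between 183 and 84 bases before the coding start and lay in the orientation of the gene at 19 and in the opposite orientation at 9. PRE5, PUP1, RPN8, RPN10, RPN13 and RPN4 did not hold these letters in this window. Other forms of the control element were not searched, so these genes are not shown to lack it. The sites below are those of the gene with the largest 36-h difference in each subcomplex among genes with the letters, then UBI4 as the member with the largest difference of all, RPN11 as the subunit that differed most between fast and slow cells, and PRE10 as the subunit that was lowest in old cells relative to young ones. Each is 5′ to 3′ on the strand that reads GGTGGCAAA, with those 9 bases in capitals and 10 bases on either side.
PUP2 (α ring), chrVII:999226-999254, minus strand: aaccaagaccGGTGGCAAAagagtaacct
PRE3 (β ring), chrX:435035-435063, plus strand: aacggaatccGGTGGCAAAaaagggaaaa
RPT4 (ATPase), chrXV:813802-813830, plus strand: ctttcccttcGGTGGCAAAttccactatt
RPN2 (base), chrIX:220801-220829, minus strand: atttattttcGGTGGCAAAactggataca
RPN6 (lid), chrIV:286790-286818, minus strand: tggttccaagGGTGGCAAAtgttggtaga
UBI4, chrXII:65349-65377, plus strand: cgaattcaaaGGTGGCAAAacccggagcc
RPN11 (lid), chrVI:153259-153287, plus strand: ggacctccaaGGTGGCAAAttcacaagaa
PRE10 (α ring), chrXV:1018856-1018884, minus strand: cctctaaatcGGTGGCAAAaataagaaag

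The subunits with and without the letters overlapped in their differences between 36-h and 2-h cells. In 36-h relative to 2-h cells the 27 subunit genes with the letters had a median difference of 0.89 on the log2 scale used below (range −0.57 to 2.29). The 5 without the letters had a median of 1.24 (range 0.49 to 1.69). PRE5 and PUP1, the core genes without the letters, were higher in 36-h cells by 1.69 and 1.12. Medians with and without the letters were 0.48 and 0.84 for 16-h minus 2-h cells, and 0.46 and 0.32 for 36-h minus 16-h cells. They were 0.79 and −0.32 for 36-h/F minus 36-h/S cells, and 0.76 and 0.45 for 16-h/F minus 16-h/S cells. Only 5 subunits lack the letters, and a relation to them was not tested.

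A level is given throughout as log2(normalized count + 1), the scale of the deposited table, on which a gene without reads in a cell is 0. A group mean is given with its SD among cells, and a difference is the difference between the means of groups. The labels name no separate cultures, so each age group or subgroup counts as 1 sample: the values describe these cells, no test between groups is possible, and no p-value is given. In place of a call, genes past a difference of 1 were counted over all 1905 genes with a mean level of at least 2 over all cells, which included all 34 members. RPN4 and UBI4, with means of 1.46 and 1.86 in 2-h cells, passed this filter only through the older cells. Cells had between 40883 and 833501 reads on genes, with a median of 263709. The median number of genes with reads was 2055 in 2-h cells, 2324 in 16-h cells and 2309 in 36-h cells, and it was 2356 in 16-h/F against 2105 in 16-h/S, and 2486 in 36-h/F against 1830 in 36-h/S. Cell separation genes of daughter cells (DSE1, DSE2, SCW11, CTS1 and EGT2) had a mean level of 0.31 ± 0.57 in 2-h cells, 2.36 ± 2.83 in 16-h cells and 1.20 ± 2.14 in 36-h cells, and their part in the results was not tested.

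UBI4 had the largest difference with age among the 34 genes. UBI4 (YLL039C, chromosome XII, 64062 to 65207, minus strand) is a single exon whose 5 repeats of 228 bases are 80.3% to 90.4% identical to each other. Its level ran from 0 to 7.05 in 2-h cells with a median of 0, from 0 to 8.17 in 16-h cells with a median of 5.89, and from 0 to 9.69 in 36-h cells with a median of 6.90. The groups overlapped, but 22 of 45 cells at 36 h lay above the highest 2-h cell, and 42 of 45 lay above the 2-h median. The mean was 6.29 ± 2.60 in 36-h cells, against 1.86 ± 2.46 in 2-h cells, which is 4.43 higher. The probability that a 36-h cell drawn at random exceeded a 2-h cell was 0.88. UBI4 reads were found in 42 of 45 cells at 36 h (93.3%, exact Clopper-Pearson 95% interval 81.7% to 98.6%), against 17 of 37 at 2 h (45.9%, 29.5% to 63.1%), intervals that cover counting error only. The 16-h cells stood between them, with a mean of 4.36 ± 2.81 and reads in 33 of 43 cells, 2.50 above the 2-h mean and 1.92 below the 36-h mean. Summed over cells, UBI4 took 541 RPM (reads scaled to a common total of reads on genes) at 36 h (exact Poisson 95% interval 528 to 555), against 80.0 RPM at 2 h (74.8 to 85.5). Of the 1097 stretches of 50 bases in UBI4, 200 occur more than once within the gene and 0 occur elsewhere in the genome, so a read within those stretches has more than 1 place in UBI4, and how the counting treated it is not given in the sources used here.

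The other ubiquitin genes differed in the opposite direction. RPS31 averaged 8.83 ± 1.34 in 36-h cells and 9.99 ± 0.36 in 2-h cells, a difference of −1.16. RPL40B averaged 5.16 ± 2.63 in 36-h cells and 6.98 ± 0.87 in 2-h cells, a difference of −1.82. RPL40A, which falls short of the naming rule for genes outside the 34 and is given as the last of these 3 genes, averaged 8.12 ± 1.49 and 9.11 ± 0.48, a difference of −0.99. On log2 ratios of mean normalized counts, RPS31, RPL40B and RPL40A were at −0.87, −0.85 and −0.72. In RPL40A and in RPL40B, 85.45% of the stretches of 50 bases occur once in the genome, against 100% in RPS31. How the counting treated reads in the other stretches is not given in the sources used here. Per kb of coding sequence, UBI4 had mean normalized counts of 15.5, 50.5 and 168 in 2-h, 16-h and 36-h cells, and RPS31 had 2282, 1586 and 1244. The share of UBI4 in the summed per-kb counts of the 4 genes was 0.371%, 1.62% and 6.64% in the same order. That share spread widely among old cells: it ran from 0% to 45.02% with a median of 3.46% at 36 h, and reached at most 3.83% in any 2-h cell.

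RPN4 was also higher in aged cells, although many of them had no RPN4 reads. RPN4 (YDL020C, chromosome IV, 415113 to 416708, minus strand) had reads in 15 of 37 cells at 2 h (40.5%, exact 95% interval 24.8% to 57.9%), 26 of 43 at 16 h (60.5%, 44.4% to 75.02%) and 29 of 45 at 36 h (64.4%, 48.8% to 78.1%). Its level ran from 0 to 8.38 at 2 h with a median of 0, from 0 to 8.28 at 16 h with a median of 4.07 and from 0 to 9.31 at 36 h with a median of 3.96. Cells without RPN4 reads were present in every age group, and the highest 2-h cell was within the range of the old cells. The mean was 3.72 ± 3.20 in 36-h cells, against 1.46 ± 2.25 in 2-h cells, which is 2.25 higher with a probability of 0.69 that a 36-h cell exceeded a 2-h cell. It was 3.38 ± 3.16 in 16-h cells, 1.92 above 2-h cells. RPN4 differed by only 0.33 between 36-h and 16-h cells, where UBI4 differed by 1.92. Per kb of coding sequence RPN4 was the lowest of the 34 genes at 2 h, with 10.9 normalized counts, and it stood at 33.01 at 16 h and 44.3 at 36 h.

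**Figure D1:**
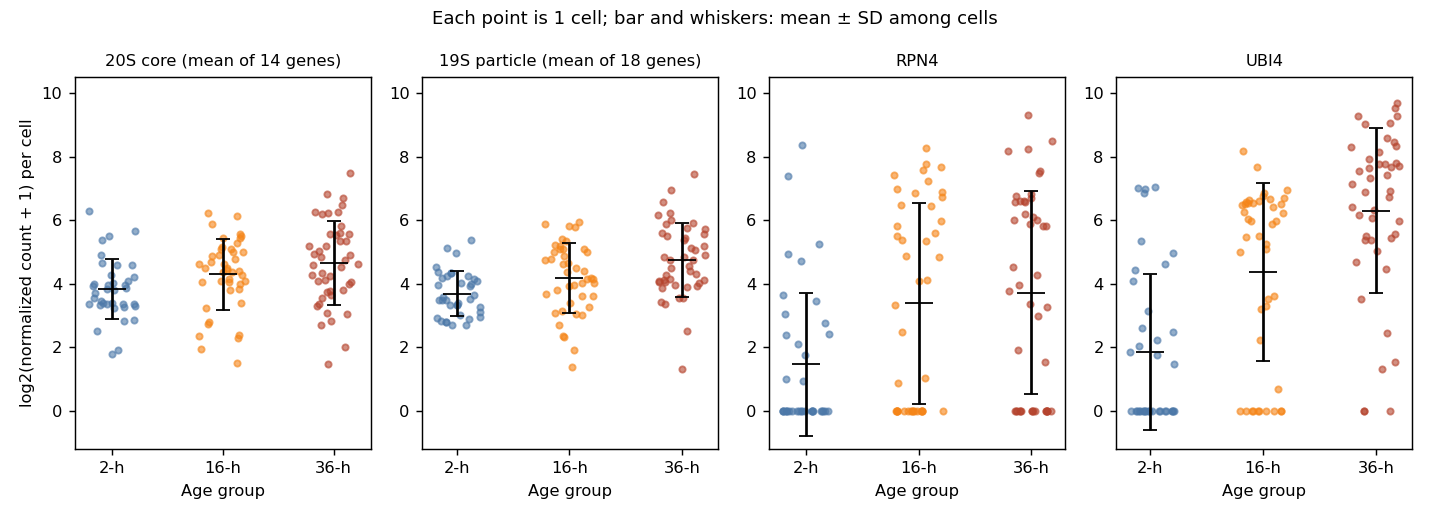
Levels per cell, as log2(normalized count + 1), of the 20S core (mean of its 14 genes), the 19S particle (mean of its 18 genes), RPN4 and UBI4 in 2-h, 16-h and 36-h cells, with bars and whiskers for the mean ± SD among cells. The core and the cap are higher at 36 h than at 2 h by 0.82 and 1.06 with overlapping ranges, UBI4 has a median of 6.90 at 36 h against 0 at 2 h, and RPN4 keeps a group of cells at 0 at each age.

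The subunit genes as a whole were higher in 36-h than in 2-h cells. Of the 34 members, 18 were higher by at least 1 and 0 lower by at least 1, against 29.4% and 21.6% of all genes tested. The 18 include RPN4 and UBI4, which passed the level filter only through the older cells. Without these 2 genes, 16 of the 32 subunits (50%) were higher by at least 1 and 0 lower by at least 1. Of the 32 subunits, 29 had a positive difference, and their median difference was 1.00 against 0.24 over all genes tested. The mean level of the 32 subunits in a cell was 4.70 ± 1.14 at 36 h (lowest cell 1.39, median 4.47, highest 7.19) and 3.74 ± 0.66 at 2 h (2.88, 3.63 and 5.77). The ranges overlapped, 40 of 45 cells at 36 h lay above the 2-h median, and the probability that a 36-h cell exceeded a 2-h cell was 0.80. The share of a cell's reads that fell on the 32 genes was 1.07% ± 0.274 at 36 h and 0.780% ± 0.239 at 2 h. Scaling every cell to the same total of reads lowered the median of all genes to 0.02 and the 32-subunit difference to 0.69, with 12 members higher by at least 1, against 25.1% of all genes under that scaling.

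**Figure D2:**
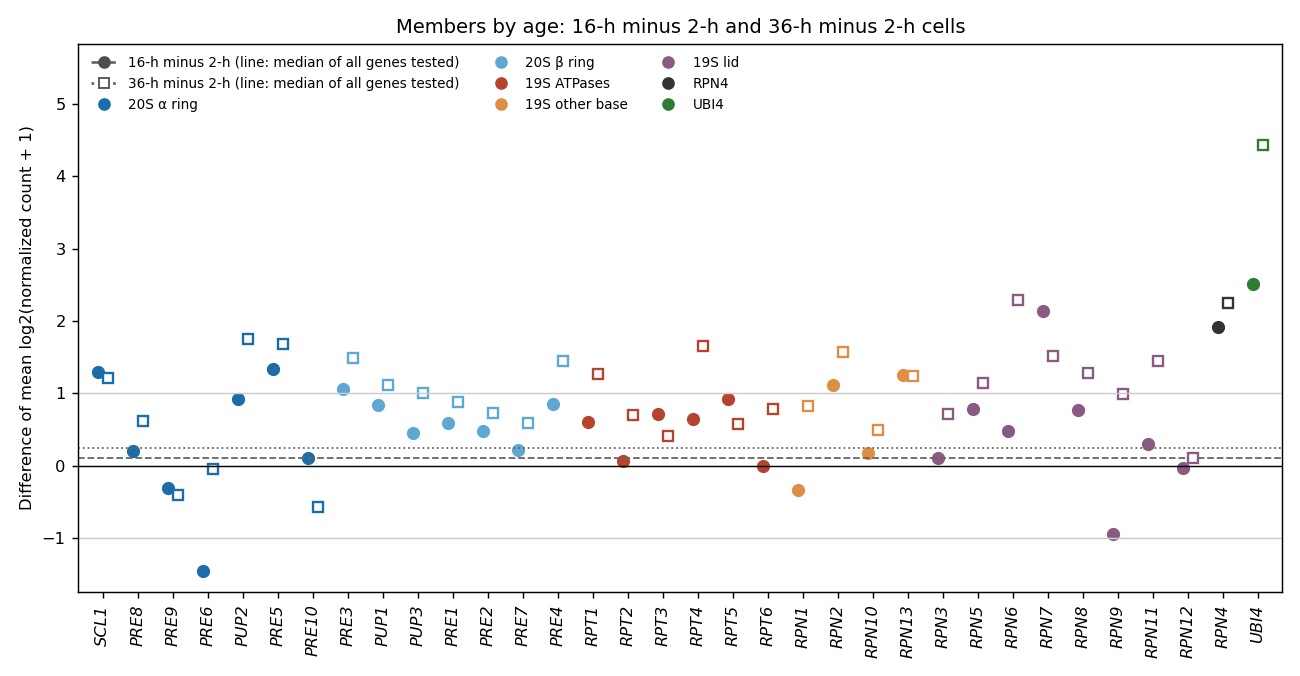
Difference of mean log2(normalized count + 1) for each of the 34 genes between 16-h and 2-h cells (filled circles) and between 36-h and 2-h cells (open squares), coloured by subcomplex, with the median over all genes tested as broken lines. All 18 genes of the 19S particle lie above 0 at 36 h, PRE9, PRE6 and PRE10 of the α ring lie below it, and UBI4 lies highest at 4.43.

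Within the 20S core, differences between 36-h and 2-h cells spanned a narrower range in the β ring than in the α ring. Whether the rings differ in this was not tested. All 7 β genes were higher in 36-h than in 2-h cells, by 0.59 to 1.49, and 4 of them were higher by at least 1. PRE3, which encodes a proteolytic β subunit, averaged 6.01 ± 2.77 in 36-h cells, against 4.51 ± 3.12 in 2-h cells (difference 1.49). PUP1 and PRE2, the other proteolytic subunits, were higher by 1.12 and 0.73, and the β genes PRE4, PUP3, PRE1 and PRE7 by 1.44, 1.00, 0.89 and 0.59. Among the α genes the differences ran from −0.57 to 1.75. PUP2 had the largest, with a level of 5.54 ± 2.77 at 36 h (median 6.74, highest 9.52) against 3.79 ± 3.10 at 2 h (median 3.92, highest 8.20). PRE5 was higher by 1.69 and was detected in 38 of 45 cells at 36 h against 23 of 37 at 2 h. SCL1 averaged 4.46 ± 2.99 in 36-h cells and 3.24 ± 2.96 in 2-h cells, and PRE8 was higher by 0.62. PRE10 averaged 4.29 ± 2.72 in 36-h cells and 4.86 ± 2.67 in 2-h cells (difference −0.57), and it was the only subunit whose mean normalized count was also lower, 55.0 against 79.9. PRE9, the α subunit whose gene is the dispensable one of the core, and PRE6 differed by −0.41 and −0.05 on the mean log2 scale, but their mean normalized counts were higher in 36-h cells, 104 against 73.6 for PRE9 and 103 against 82.0 for PRE6.

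Every gene of the 19S particle had a positive difference between 36-h and 2-h cells, from 0.12 for RPN12 to 2.29 for RPN6, and 9 of the 18 were higher by at least 1. RPN6 (YDL097C) encodes the lid subunit that clamps the cap to the core. Its level ran from 0 to 9.80 at 36 h with a median of 7.16, against 0 to 8.56 at 2 h with a median of 4.35, and its means were 6.43 ± 2.80 and 4.14 ± 3.03. The ranges overlapped, with a probability of 0.73 that a 36-h cell was higher. The other lid genes past 1 were RPN7 (1.52), RPN11 (1.45), RPN8 (1.28) and RPN5 (1.15), while RPN9, at 1.00 when rounded, lay just under the line and RPN3 was at 0.71. RPN8 and RPN11 encode partner subunits, of which Rpn11 is the deubiquitinase. In the base, RPN2, a scaffold subunit, averaged 6.84 ± 2.44 at 36 h and 5.27 ± 2.45 at 2 h (difference 1.58), and RPN1, the other scaffold, was higher by 0.83. RPN13 and RPN10, the ubiquitin receptors, were higher by 1.24 and 0.49. Of the ATPases, RPT4 (1.65) and RPT1 (1.26) were past 1, and RPT6, RPT2, RPT5 and RPT3 were higher by 0.79, 0.70, 0.57 and 0.41.

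At 16 h the subunits stood between young and old cells. The 32-subunit level was 4.23 ± 1.04 in 16-h cells, 0.48 above 2-h cells, with a probability of 0.69 that a 16-h cell was higher. This comparison uses the same 2-h cells as the one at 36 h. Of the 34 members, 8 were higher by at least 1 and 1 was lower by at least 1, against 17.1% and 8.82% of all genes, so the higher members (23.5%) were not far from the background. The 8 were UBI4, RPN7, RPN4, PRE5, SCL1, RPN13, RPN2 and PRE3. Without UBI4 and RPN4, 6 of the 32 subunits (18.75%) were higher by at least 1. On the ratio of mean normalized counts, the 32-subunit difference between 16-h and 2-h cells was 0.08 and 3 members were past 1. RPN7, a lid gene, averaged 4.90 ± 2.09 in 16-h cells against 2.76 ± 2.81 in 2-h cells, and was detected in 39 of 43 cells against 21 of 37. PRE6 was lower at 16 h, with 3.79 ± 2.64 against 5.23 ± 2.38 at 2 h (difference −1.44), and RPN9 was lower by less than 1, with 2.19 ± 2.40 against 3.13 ± 2.55 (difference −0.94).

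Between 36-h and 16-h cells, 7 members were higher by at least 1 and 0 lower by at least 1, against 18.6% and 15.2% of all genes. The share of higher members (20.6%) was near the background. RPN9 had the largest difference, 1.93, with a level of 4.13 ± 3.03 at 36 h (median 5.07) against 2.19 ± 2.40 at 16 h (median 1.03). UBI4 (1.92), RPN6 (1.81), PRE6 (1.40), RPN1 (1.16), RPN11 (1.16) and RPT4 (1.01) followed. The order of the ages was therefore not the same for each gene: PRE6 and RPN9 had their lowest mean at 16 h on both scales, and RPN7 was highest at 16 h in mean log2 but highest at 36 h in mean normalized counts, with 22.5, 42.7 and 50.3 per kb in 2-h, 16-h and 36-h cells. The 32-subunit difference was 0.47 against a median of 0.06 over all genes, and it was 0.11 against a median of −0.24 when every cell was scaled to the same total of reads, where the core alone was at −0.01.

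The core and the cap were compared within each cell, as the mean over the 14 core genes minus the mean over the 18 cap genes. This difference was 0.14 ± 0.99 in 2-h, 0.12 ± 0.81 in 16-h and −0.10 ± 0.95 in 36-h cells. The shift between 36-h and 2-h cells, −0.24, was small beside the spread among cells, and the probability that a 36-h cell exceeded a 2-h cell was 0.40. For the groups of genes themselves, 36-h cells were higher than 2-h cells by 0.61 for the α ring, 1.04 for the β ring, 0.90 for the ATPases, 1.03 for the other base genes and 1.19 for the lid. Of the 45 cells at 36 h, 41 lay above the 2-h median of the cap and 32 lay above that of the core. In summed reads, cap genes took 6272 RPM at 36 h (exact Poisson 95% interval 6227 to 6317) against 4369 at 2 h (4330 to 4408), and core genes took 4502 RPM at 36 h (4465 to 4541) against 3684 at 2 h (3648 to 3720). Whether core and cap differ in their change with age was not tested, as a group is 1 sample.

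Normalized counts per kb of coding sequence were higher for core genes than for cap genes at each age. Core genes have coding lengths of 597 to 867 bases and cap genes of 471 to 2982. The part of gene length in this difference was not tested, so it is not shown that core transcripts are more abundant. The median over the 14 core genes was 73.7, 73.7 and 128 normalized counts per kb in 2-h, 16-h and 36-h cells, and that over the 18 cap genes was 36.0, 44.9 and 77.9. PRE3 was highest of the subunits at each age, with 135, 136 and 256 per kb. Levels within a subcomplex were not equal: the highest core gene had 4.43 times the level of the lowest at 2 h (PRE3 over PRE5) and 4.03 times at 36 h (PRE3 over PRE10), and the highest cap gene 2.91 times at 2 h (RPN10 over RPN7) and 4.58 times at 36 h (RPN6 over RPN1). UBI4 was 33rd of the 34 genes per kb at 2 h, 19th at 16 h and 2nd at 36 h. No spread among cells is given for these per-kb values, so the order of neighbouring genes is only a description.

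Fast-dividing and slow-dividing cells of one age were compared next. At 36 h, 14 of the 34 members were higher in 36-h/F by at least 1 and 2 were lower by at least 1, against 29.1% and 7.4% of all genes. The 32-subunit level was 4.99 ± 1.06 in 36-h/F and 4.26 ± 1.14 in 36-h/S, a difference of 0.73 with a probability of 0.69, where the median of all genes tested was 0.47. The cap differed by 0.94 (5.12 ± 0.97 in 36-h/F, 4.18 ± 1.20 in 36-h/S) and the core by 0.45 (4.83 ± 1.33 in 36-h/F, 4.37 ± 1.29 in 36-h/S). More genes were detected in 36-h/F cells, as given above, and their part in these differences was not tested. On mean normalized counts, which weigh the highest cells most, the 32-subunit difference was −0.08, the core was lower in 36-h/F by 0.23 and 2 members were past 1, so the direction for the subunits as a whole held only on the mean log2 scale. Subunit genes took 1.07% ± 0.253 of the reads in 36-h/F and 1.09% ± 0.310 in 36-h/S, and 26.8 ± 4.37 of the 32 genes were detected per cell in 36-h/F against 21.8 ± 5.73 in 36-h/S.

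Single subunits differed from one another in direction at 36 h. RPN11 (YFR004W) averaged 5.50 ± 2.53 in 36-h/F (median 5.87, highest 10.20) and 2.33 ± 2.94 in 36-h/S (median 0.66, highest 7.99), a difference of 3.17, and its mean normalized count was higher in the same direction, 128 against 34.1. It was detected in 24 of 27 fast cells (88.9%, exact 95% interval 70.8% to 97.7%) and 9 of 18 slow cells (26.02% to 74.0%). PRE1 (YER012W), a β ring gene, averaged 5.62 ± 2.71 in 36-h/F and 2.69 ± 3.51 in 36-h/S, a difference of 2.93, with reads in 24 of 27 and 8 of 18 cells. RPT6, an ATPase gene, averaged 6.28 ± 2.50 in 36-h/F and 4.02 ± 3.85 in 36-h/S, a difference of 2.26. On log2 ratios of mean normalized counts the differences were smaller, 0.89 for PRE1 and 0.33 for RPT6. SCL1, the α1 gene, was lower in fast cells, 3.79 ± 2.71 in 36-h/F (median 2.87) against 5.46 ± 3.18 in 36-h/S (median 7.10), a difference of −1.67, and RPN13 was lower by 1.24. RPN4 averaged 4.03 ± 2.94 in 36-h/F and 3.25 ± 3.60 in 36-h/S, but its mean normalized count was 58.2 in 36-h/F and 89.4 in 36-h/S, so its direction depended on the scale. UBI4 averaged 6.72 ± 2.29 in 36-h/F and 5.64 ± 2.94 in 36-h/S, a difference of 1.08 that was 0.40 among cells in which ERCC spike-ins took no more than 0.5 of the reads.

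**Figure D3:**
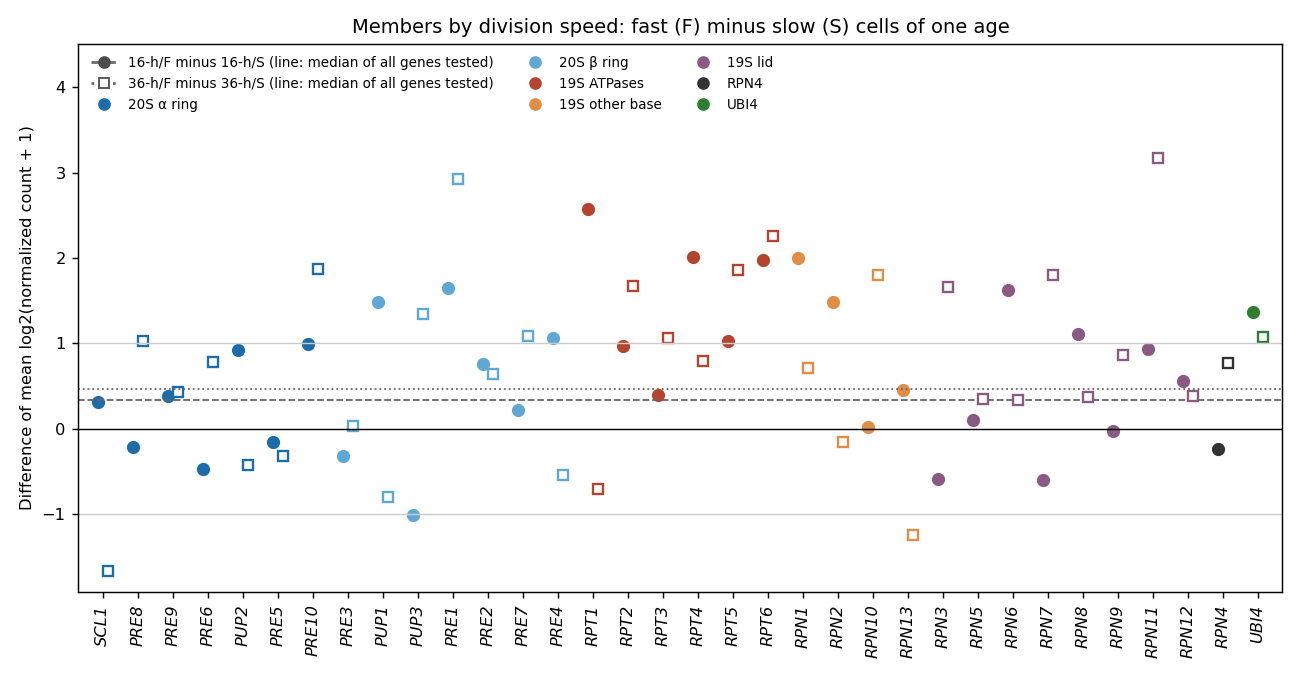
Difference of mean log2(normalized count + 1) between fast-dividing and slow-dividing cells for each of the 34 genes, at 16 h (16-h/F minus 16-h/S, filled circles) and at 36 h (36-h/F minus 36-h/S, open squares), with the median over all genes tested as broken lines. RPN11 and PRE1 lie highest at 36 h, near 3, RPT1 lies highest at 16 h, at 2.57, and SCL1 lies lowest at 36 h, at −1.67.

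At 16 h, 12 of the 34 members were higher in 16-h/F by at least 1 and 1 was lower by at least 1, against 19.5% and 5.09% of all genes. The ATPases of the 19S base were the subcomplex with the largest difference, 4.98 ± 0.96 in 16-h/F and 3.48 ± 1.64 in 16-h/S, or 1.49 with a probability of 0.76, and each of the 6 was higher in 16-h/F, as 69.7% of all genes were. On log2 ratios of mean normalized counts, RPT2 and RPT3 had the other direction, at −0.89 and −0.31, and the other ATPases were at 0.40 to 2.16. RPT1 averaged 5.51 ± 2.23 in 16-h/F (median 6.04, highest 8.63) and 2.94 ± 2.34 in 16-h/S (median 2.38, highest 6.50), a difference of 2.57, and its mean normalized count was 95.8 against 20.7. RPT4, RPT6 and RPT5 were higher by 2.02, 1.97 and 1.03, and RPT6 was detected in 26 of 26 fast cells and 10 of 17 slow cells. RPN1, the scaffold of the base, was higher by 2.00 in 16-h/F. At 36 h the ATPases together were again higher in fast cells, 5.26 ± 1.44 in 36-h/F and 4.10 ± 1.88 in 36-h/S, a difference of 1.16. There 5 of the 6 were higher in 36-h/F, as 68.1% of all genes were. Their log2 ratios of mean normalized counts at 36 h ran from −1.19 for RPT1 to 1.05 for RPT3. RPT1 had the other direction at 36 h, with 4.86 ± 3.12 in 36-h/F and 5.57 ± 3.79 in 36-h/S (difference −0.71), and its change of direction between the ages was not tested. At 16 h the α ring differed by 0.25 and the lid by 0.39. RPN7, lower in 16-h/F by 0.60, and PUP3, lower by 1.01, were among the genes of opposite direction. The 32-subunit level was 4.49 ± 0.90 in 16-h/F and 3.82 ± 1.12 in 16-h/S, a difference of 0.68 against a median of 0.33 over all genes, and it was 0.25, with the core at −0.01, among cells where ERCC spike-ins took no more than 0.5 of the reads, which left 25 of 26 fast and 12 of 17 slow cells. UBI4 averaged 4.91 ± 2.70 in 16-h/F and 3.53 ± 2.84 in 16-h/S, a difference of 1.37 that was 0.77 in those low-ERCC cells and 0.47 when the split was made at the median generation. RPN4 averaged 3.29 ± 3.18 in 16-h/F and 3.53 ± 3.23 in 16-h/S, a difference of −0.24.

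In both 36-h and 16-h cells the balance within a cell leaned toward the cap in the fast subgroup. The core minus cap value was −0.29 ± 0.88 in 36-h/F and 0.20 ± 1.00 in 36-h/S, a difference of −0.49, and −0.07 ± 0.72 in 16-h/F and 0.42 ± 0.87 in 16-h/S, a difference of −0.49. Each shift was smaller than the SD among cells, with probabilities of 0.34 and 0.32 that a fast cell exceeded a slow one. Thinning each cell to 40000 reads gave −0.50 at 36 h and −0.59 at 16 h, and on mean normalized counts the values were −0.26 and −0.01.

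Within an age group, the generation of a cell was related to its subunit level as a description across cells. These cells differ in depth, and the labels name no plate for them. Over the 45 cells at 36 h, with generations from 8 to 22, Pearson's r between generation and the 32-subunit level was 0.33 and Spearman's rho was 0.36, and over the 43 cells at 16 h, with generations from 5 to 12, they were 0.25 and 0.22. Leaving out the 2 cells whose generation lay farthest from the median, r was 0.39 at 36 h, while at 16 h there were 7 cells tied for the second place and no such value is given. Among cells where ERCC spike-ins took no more than 0.5 of the reads, r was 0.29 at 36 h and 0.05 at 16 h. The number of genes detected had an r with generation of 0.47 at 36 h and 0.28 at 16 h, and given that number the partial correlation of the subunits was 0.08 at 36 h and 0.05 at 16 h. For the cap, r was 0.38 at 36 h and 0.33 at 16 h, while for the core it was 0.21 at 36 h and 0.10 at 16 h. Given the genes detected, these became 0.16 at 36 h and 0.20 at 16 h for the cap, and −0.03 at 36 h and −0.16 at 16 h for the core. Of the subcomplexes, the ATPases had the highest r at 16 h, 0.50 (0.44 given the genes detected), and the lid at 36 h, 0.43 (0.25 given the genes detected). Over single subunits at 36 h, r ran from −0.24 for RPN13 to 0.57 for RPN11, which stayed at 0.58 given the genes detected, and 21 of 32 were positive (median 0.13), against 69.6% of all genes (median 0.09). At 16 h, r ran from −0.22 for PRE3 to 0.50 for RPT1, and again 21 of 32 were positive, against 64.4% of all genes, so the number of positive subunits was near the background at both ages. For UBI4, r with generation was 0.08 at 36 h (0.22 without the 2 farthest cells) and 0.22 at 16 h. For RPN4 it was 0.15 at 36 h (0.21 without them) and −0.18 at 16 h.

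**Figure D4:**
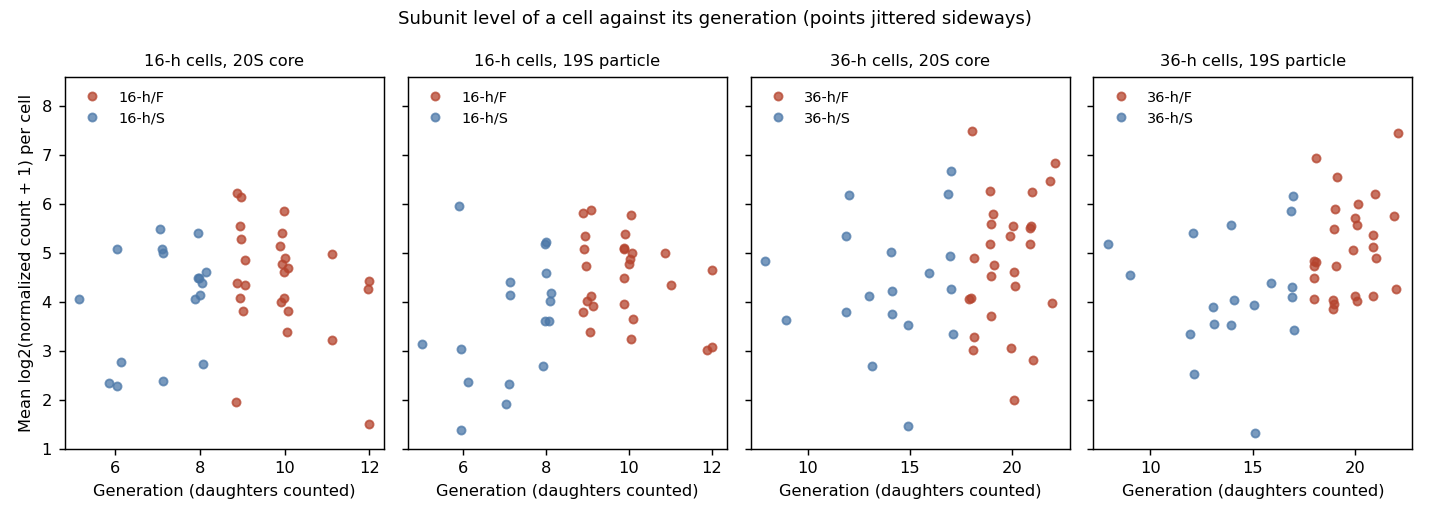
Mean log2(normalized count + 1) of the 20S core and of the 19S particle in each cell against its generation, for 16-h and 36-h cells, with fast-dividing cells in red and slow-dividing cells in blue and points moved slightly sideways. Cells of equal generation span several log2 units, and the r values lie between 0.10 for the core at 16 h and 0.38 for the cap at 36 h.

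Transcripts of the regulator and of the subunits were then compared cell by cell. Pearson's r between RPN4 and the 32-subunit level was −0.07 in 2-h cells (Spearman's rho −0.06, n = 37 cells) and −0.07 in 16-h cells (rho −0.08, n = 43 cells). In 36-h cells it was 0.48 (rho 0.53, n = 45 cells), or 0.42 given the number of genes detected. In both subgroups at 36 h the value was positive, 0.40 in 36-h/F and 0.56 in 36-h/S. It was 0.08 in 16-h/F and −0.25 in 16-h/S. The 32-subunit level itself had an r of 0.58 with the number of genes detected in 36-h cells. The 29 cells with RPN4 reads at 36 h had a 32-subunit level of 4.97 ± 1.07, against 4.21 ± 1.12 in the 16 cells without, and a median of 2486 genes detected against 1922. At 2 h the 15 cells with RPN4 reads had 3.63 ± 0.56 and the 22 without had 3.82 ± 0.71. The difference between ages in this relation was not tested. UBI4 had r with the subunit level of 0.10, 0.27 and 0.31 in 2-h, 16-h and 36-h cells, and r with RPN4 of 0.10 in 36-h cells.

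**Figure D5:**
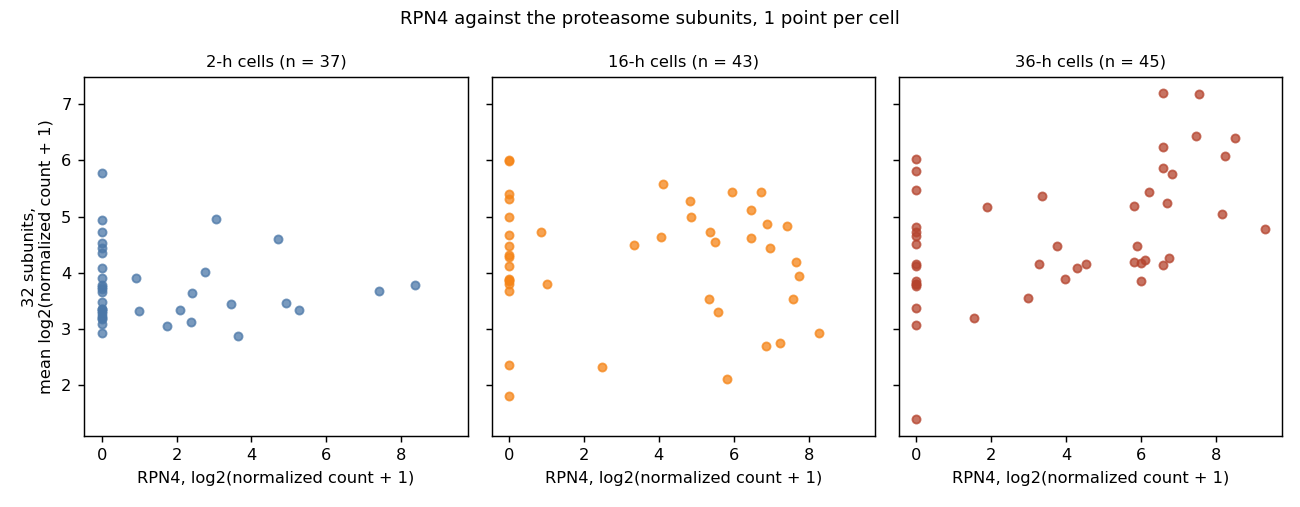
Mean log2(normalized count + 1) of the 32 subunits against RPN4 in each cell, in 2-h, 16-h and 36-h cells. The points at the left edge are cells without RPN4 reads, and an upward slope is seen at 36 h, where r was 0.48, while r was −0.07 at 2 h and at 16 h.

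The correlations among subunits were weak and were lowest in 2-h cells, a difference between ages that was not tested. The 496 pairs of subunit genes had a median r across cells of 0.03 at 2 h (56.7% positive), 0.13 at 16 h (79.6%) and 0.12 at 36 h (76.4%), where pairs of all genes tested had 0.01, 0.05 and 0.05. Core and cap levels of the same cell had r of 0.31, 0.74 and 0.71 in 2-h, 16-h and 36-h cells, and 0.13, 0.41 and 0.60 given the genes detected. At 36 h, pairs between core and cap genes had a median r of 0.13, pairs within the core 0.11 and pairs within the cap 0.09. These are weak values from sparse counts: a subunit gene was detected in a median of 71.6%, 80.2% and 77.8% of 2-h, 16-h and 36-h cells. The least often detected were PRE4 at 2 h (21 of 37 cells), RPN9 at 16 h (24 of 43) and RPN12 at 36 h (23 of 45). After each cell was thinned to 40000 reads, the median number of subunit genes detected per cell was 20, 24 and 22 in 2-h, 16-h and 36-h cells, and 25 in 36-h/F against 20 in 36-h/S.

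Other genes of the pathway were taken from lists chosen by function. Of 15 genes for proteasome assembly and activation, 6 passed the level filter. In 36-h relative to 2-h cells all 6 had a positive difference, 3 of them by at least 1 and none below −1, with a median of 0.81. Of all genes tested, 56.0% had a positive difference, 29.4% were higher and 21.6% lower by at least 1, and the median was 0.24. UBP6, the deubiquitinase bound to the base, stood at 4.84 ± 3.18 in 36-h cells and 2.98 ± 2.54 in 2-h cells, and SEM1, a small lid subunit outside the 34, at 3.28 ± 2.02 in 36-h cells and 2.15 ± 1.87 in 2-h cells. TMA17, an assembly chaperone of the base whose mean lay under the level filter, had the largest difference of the list, 3.69 ± 2.94 in 36-h cells and 0.53 ± 1.21 in 2-h cells, with reads in 31 of 45 and 7 of 37 cells. Of 18 ubiquitin enzymes and shuttle factors, 12 passed the filter, with 5 higher by at least 1, 0 lower by at least 1 and a median of 0.66. These counts stand against the same 29.4% and 21.6% of all genes. Whether these short lists differ from all genes was not tested. UBR1, the ligase of the N-degron pathway, averaged 4.00 ± 3.45 in 36-h cells and 2.04 ± 2.70 in 2-h cells. UBR2, a ligase of Rpn4 itself, averaged 2.80 ± 2.94 in 36-h cells and 1.25 ± 2.46 in 2-h cells, so it passed the filter only through the older cells. UBA1, the ubiquitin-activating enzyme, was higher by 1.27 and CUZ1, a Cdc48-associated factor, by 1.21. UBC5, DDI1 and UBP14, all under the level filter, had differences of 1.57, 1.57 and 1.21. Of 3 known transcriptional activators of RPN4, 2 passed the filter, and 0 differed by at least 1 in either direction in this comparison.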

How the data were processed

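Per the labels and the study's methods, Smart-seq2 libraries primed with oligo-dT and without molecular identifiers were made from single cells, reads were mapped by the authors to genome R64 with HISAT2 2.1.0, sorted with SAMtools 1.1 and counted with featureCounts. The authors divided the counts of each cell by its DESeq2 size factor, added a pseudocount of 1 and deposited the log2 of the result. The table holds 125 of the 136 cells listed. Undoing the log2 gave whole multiples of 1 step in each cell, and all 278228 values above 0 were whole reads (tolerance 0.05).

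Generation, fast or slow division and ERCC shares come from the study's supplementary table and not from the sample labels. Members and lists were chosen with earlier results of these data known. All 34 members are named. From the other lists, the genes with a 36-h minus 2-h difference of at least 1 were named, at most 12 with the largest first. No test was run, since a group counts as 1 sample, and intervals (Clopper-Pearson, Poisson, 95%) cover counting error only. Coding lengths and sequences come from RefSeq R64, the build the authors used, and no member overlaps another annotated gene. The alternatives were the same total of reads per cell, cells where ERCC spike-ins took no more than 0.5 of the reads, thinning to 40000 reads (seed 20220), log2 ratios of mean normalized counts, medians over genes, other filters, rank and partial correlations, and a split at the median generation. The procedures were tested on simulated data. Python 3.11.15 with numpy 2.4.6, pandas 2.3.3, scipy 1.17.1 and matplotlib 3.10.9 was used. The strand setting of the counting is not given in the sources used here.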

Additional observations from a re-analysis of the deposited data

How the results depend on the processing

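The alternatives moved several results. On log2 ratios of mean normalized counts the 32-subunit difference between 16-h and 2-h cells was 0.08 (0.48 on the mean log2 scale), and the 36-h/F minus 36-h/S values of the 32 subunits, the core and RPN4 turned to −0.08, −0.23 and −0.61. The core was at −0.01 for 36 h against 16 h with the same total of reads per cell, and for 16-h/F against 16-h/S in low-ERCC cells, where ERCC spike-ins took no more than 0.5 of the reads. The 36-h minus 2-h difference stayed between 0.69 and 1.14 for the 32 subunits and between 3.36 and 4.75 for UBI4.

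Counts of members past a difference of 1 moved as well, each given with the share of all genes past 1 in the same setting. On log2 ratios, 3 members were higher at 16 h than at 2 h (9.82%), 12 at 36 h than at 16 h (29.2%), 2 in 36-h/F (7.72%) and 3 in 16-h/F (7.30%), and 0 were lower in 16-h/F (12.02%). In low-ERCC cells, 13 were higher at 16 h than at 2 h (21.2%), 1 was lower at 36 h than at 16 h (14.5%), 4 in 36-h/F (10.499%) and 3 in 16-h/F (9.87%). With the same total of reads, 4 were higher (12.5%) and 1 lower (22.7%) at 36 h than at 16 h, 1 was lower in 36-h/F (5.30%) and 0 in 16-h/F (4.57%). That scaling put the median of all genes at 0.02 in place of 0.24 for 36 h against 2 h, and at −0.24 in place of 0.06 for 36 h against 16 h. Split at the median generation, 0 were lower in 16-h/F (6.61%). The correlation of the 32 subunits with generation at 16 h was 0.0505 in low-ERCC cells and 0.0464 given the genes detected, and at 36 h it was 0.0807 given the genes detected and 0.447 with the same total of reads. The cause of these moves was not tested. Over all cells and genes 62.9% of the values were 0, and a gene without reads in a cell is not shown to be absent there.

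No paired analysis was possible because the cell numbers in the labels only name cells and the results come from no test.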

Other observations

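Other genes listed as targets of Rpn4 went in both directions, as all genes tested did. In 36-h relative to 2-h cells, 53.2% of the targets passing the level filter had a positive difference, against 56.0% of all genes. The share of these targets higher by at least 1 was 23.4%, against 29.4% of all genes. Of 162 listed targets outside the 34 members, 77 passed the level filter, and in 36-h relative to 2-h cells 18 were higher by at least 1 and 14 lower by at least 1, against 29.4% and 21.6% of all genes, with a median difference of 0.04, where the median of all genes tested was 0.24 and that of the 32 subunits 1.00. In 16-h relative to 2-h cells, which share the 2-h cells with the comparison just given, 18 were higher and 7 lower by at least 1, against 17.1% and 8.82% of all genes, with a median of 0.40 against 0.12. Between 36-h/F and 36-h/S cells, 27 were higher and 5 lower by at least 1, against 29.1% and 7.4% of all genes, with a median of 0.53 against 0.47 over all genes. The target lists were held only in part and some of them were selected by the study on these cells, so their counts are a description and no independent evidence.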
